A study of Mus musculus with 4 samples.

Results

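The receptors through which endothelial cells (ECs) read bone morphogenetic protein (BMP) and transforming growth factor β (TGF-β) were followed in mouse brain after tamoxifen. They comprised 10 genes, chosen by name: the type I receptors Acvrl1, Acvr1, Bmpr1a and Tgfbr1, the type II receptors Bmpr2, Acvr2a, Acvr2b and Tgfbr2, and the coreceptors Eng (endoglin) and Tgfbr3 (betaglycan). All 10 were found among the 24873 genes of the expression table. The mice (labelled Cdh5cre;Mgpflox/flox) carried VE-cadherin cre/ERT2 and floxed Mgp, so that tamoxifen activates a Cre recombinase driven from the VE-cadherin promoter and deletes the floxed gene for matrix Gla protein (MGP), an inhibitor of BMPs. From 10 weeks of age, the tamoxifen group received 5 daily injections of 75 mg/kg tamoxifen, and brain cells were taken on day 9. The control group carried the same alleles and received no tamoxifen, so that the drug itself and the deletion cannot be told apart in these data. Each group held 2 libraries, and each library pooled cells of 3 mice. The study describes the cells as CD31+CD45- cerebral ECs, whereas the labels name them by tdTomato fluorescence.

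In this family, a ligand brings type II and type I receptor kinases together, the type II kinase activates the type I kinase, and the type I kinase phosphorylates Smad proteins that enter the nucleus. Acvrl1 (ALK1) with Bmpr2 or Acvr2a and with endoglin is the main route by which ECs sense circulating BMP9 and BMP10. Loss-of-function mutations of Acvrl1 or Eng in people cause hereditary haemorrhagic telangiectasia, a disease of arteriovenous malformations.

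The values were normalized counts, that is, reads per gene divided by a size factor of the library. Reads on genes ran from 35387438 to 49799321 a library. Mgp itself was at 1094 and 1352 in the controls and at 945 and 909 under tamoxifen, a log2 fold change of -0.39 ± 0.18 (SE) that was not called (limma, Benjamini-Hochberg adjusted p = 0.0986). It was called lower after quantile normalization (-0.65, limma, adjusted p = 0.0128) and turned to 0.079 when libraries were rescaled to equal totals. By real-time PCR, a different measure, the study reported a progressive fall of Mgp in cerebral ECs after tamoxifen. The 12 endothelial markers all fell, by a median of 2.94 on the log2 scale, with Pecam1 at -2.85 and Cdh5 at -2.84 (-1.89 and -1.90 after quantile normalization), and their summed level went from 1067712 and 1050286 to 181898 and 92330. A lower level in a pool of cells can come from fewer cells of a type or from less RNA per cell, and these cannot be told apart. P-values measure the spread between 2 libraries a group and rest on a model fitted across 20485 genes, since an exact permutation of 2 against 2 libraries cannot go below 0.333. A gene was called at an adjusted p under 0.05.

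Of the 10 receptors, 7 were called lower under tamoxifen (Acvrl1, Eng, Bmpr2, Tgfbr2, Tgfbr3, Acvr1 and Acvr2a), 1 was called higher (Bmpr1a), and 2 were not called (Tgfbr1 and Acvr2b). Over all genes tested, 25.5% were called lower and 33.4% higher (5228 and 6843 genes). This balance depended on scaling, with 2833 lower and 9255 higher on equal totals and 7405 lower and 5707 higher after quantile normalization. The median log2 fold change was -1.42 over the 10 receptors and 0.05 over all genes. When a log2 fold change beyond 1 was also asked for, 6 receptors were lower, against 16.0% of all genes, and 1 was higher, against 28.6%. In every one of the 10 genes the 2 groups did not overlap: 8 were lower and 2 higher in both tamoxifen libraries, where 39.2% and 43.1% of all genes were lower and higher in this way.

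**Figure D1:**
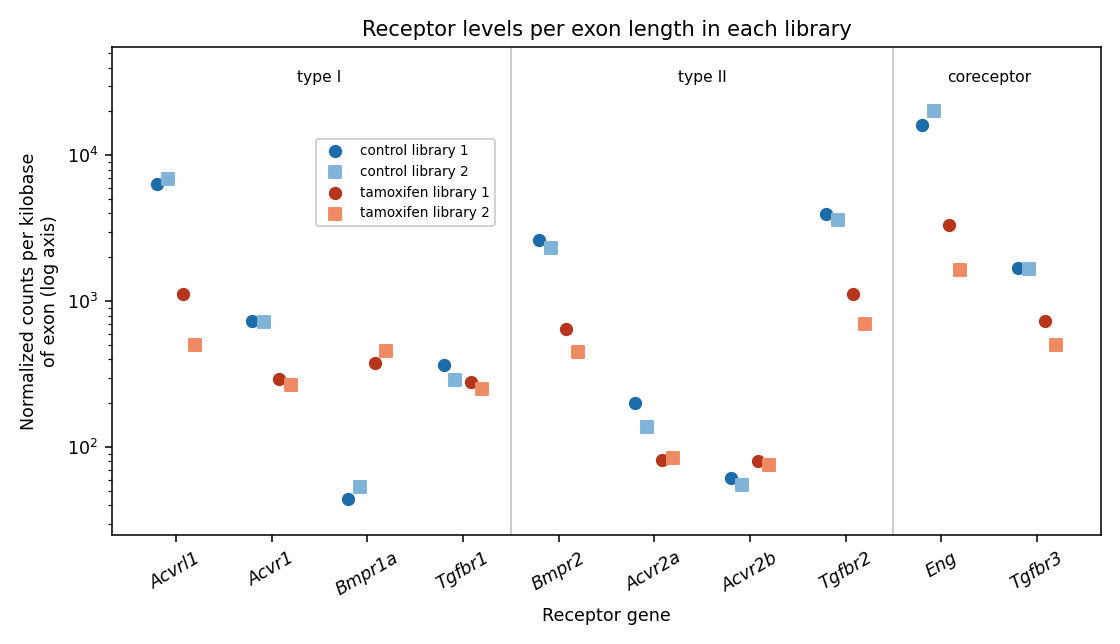
Level of each receptor gene in each library, as normalized counts per kilobase of exon on a log axis; circles and squares are the 2 libraries of each group. Acvrl1 and Eng lie far below their control points in both tamoxifen libraries, and Bmpr1a lies far above.

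Levels of different genes were compared per kilobase of exon. In the control libraries, Eng was highest, at 16178 and 20185 normalized counts per kilobase, and Acvrl1 followed at 6337 and 6923. Next came Tgfbr2, Bmpr2, Tgfbr3, Acvr1, Tgfbr1, Acvr2a and Acvr2b, and Bmpr1a closed the order at 44.1 and 53.2. None of the 9 pairs of neighbours in this order overlapped between libraries, and the highest mean was 373 times the lowest. Under tamoxifen the span narrowed to 31.7 times, and 5 of 9 pairs of neighbours overlapped. Eng still led, at 3314 and 1641. Tgfbr2, Acvrl1, Tgfbr3, Bmpr2 and Bmpr1a then formed a run in which each overlapped its neighbour. Acvr1 (294 and 267) and Tgfbr1 (280 and 251) also overlapped, and Acvr2a (81.8 and 85.0) and Acvr2b (81.1 and 75.2) were lowest. Bmpr1a had thus moved from the tenth place to the sixth.

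Among the type I receptors, Acvrl1, the endothelial receptor of BMP9 and BMP10, showed the largest fall of the 10 genes. Its gene lies on chromosome 15 (GRCm39, 15:101025996-101043217, plus strand). Its normalized counts were 47879 and 52300.4 in the controls and 8461 and 3790.0 under tamoxifen. Both tamoxifen libraries were far below both controls, and the second was also well below the first. The log2 fold change was -3.14 ± 0.35 (SE; adjusted p = 0.000205), and it ran from -3.72 to -2.56 when each library was left out in turn and was -2.45 after quantile normalization.

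Acvr1 (ALK2; 2:58278656-58457770, minus strand), which carries BMP signals in many cell types, was at 4884 and 4789.9 in the controls and at 1967 and 1784 under tamoxifen. The groups were well apart and the libraries of each group close together, with a log2 fold change of -1.37 ± 0.15 (limma, adjusted p = 0.000188). After quantile normalization it was -1.21, and on equal totals -0.90.

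Bmpr1a (ALK3; 14:34132687-34225379, minus strand), the widely expressed receptor of BMP2 and BMP4, moved the other way. It was at 342 and 413 in the controls and at 2946 and 3558 under tamoxifen, a mean 8.61 times that of the controls. Both tamoxifen libraries lay above both controls, and the log2 fold change was 3.10 ± 0.19 (adjusted p = 1.92e-05).

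Tgfbr1 (ALK5; 4:47353134-47414931, plus strand), the main type I receptor of TGF-β, was at 2442 and 1927 in the controls and at 1855 and 1659.9 under tamoxifen. The lower control library lay just above the higher tamoxifen library. The log2 fold change of -0.31 ± 0.18 was not called (adjusted p = 0.170), and its 95% confidence interval ran from -0.72 to 0.10. The sign turned to 0.16 when libraries were rescaled to equal totals, a change that moved the median of all genes from 0.05 to 0.54.

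Among the type II receptors, Bmpr2 (1:59802544-59918173, plus strand), the BMP receptor mutated in heritable pulmonary arterial hypertension, was at 47432 and 42084 in the controls. It was at 11599.9 and 8151 under tamoxifen. All tamoxifen values were below all control values, and the log2 fold change was -2.20 ± 0.24 (adjusted p = 0.000178), or -1.45 after quantile normalization.

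Tgfbr2 (9:115913361-116004800, minus strand), the TGF-β type II receptor, was at 34917 and 31561 in the controls and at 9892 and 6139 under tamoxifen. The groups were apart here too, with a log2 fold change of -2.09 ± 0.25 (adjusted p = 0.000306), or -1.43 after quantile normalization.

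The activin type II receptors, which also bind BMPs, changed less. Acvr2a (2:48703743-48793283, plus strand) was at 2022 and 1386 in the controls and at 825 and 858 under tamoxifen, a log2 fold change of -0.99 ± 0.21 (adjusted p = 0.00504). The control libraries differed from each other more than the tamoxifen libraries did. This call was lost without the first tamoxifen library (adjusted p = 0.111), without the second (adjusted p = 0.109) and on equal totals (log2 fold change -0.52, adjusted p = 0.0766). Acvr2a shares 3081 exonic bases with Orc4 on the opposite strand, and Orc4 was at 1416 and 925 in the controls and at 900 and 913 under tamoxifen. The libraries were made with a kit that keeps strand, but the strand setting of the counting is not given in the sources used here, so reads of such partners may not have been told apart.

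Acvr2b (9:119231103-119271213, plus strand) was at 693 and 622 in the controls and at 907 and 841 under tamoxifen. Both tamoxifen values lay above both controls, but the log2 fold change of 0.41 ± 0.19 was not called (adjusted p = 0.0915, 95% confidence interval -0.02 to 0.84). On equal totals it was 0.88 and was called (adjusted p = 0.00458), whereas quantile normalization gave 0.0037. Acvr2b shares 1471 exonic bases on the opposite strand with 4930516B21Rik, a gene at 343 and 272 in the controls and at 344 and 308 under tamoxifen. The remaining 8 receptors shared at most 860 exonic bases with a neighbour, which was the overlap of Eng with Fpgs.

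Of the coreceptors, which present ligand to the kinases, Eng (2:32535543-32574661, plus strand) had the highest level. It was at 126152 and 157399 in the controls and at 25846 and 12793 under tamoxifen, where the second library again lay below the first. The log2 fold change was -2.95 ± 0.37 (adjusted p = 0.000378), with a range of -3.46 to -2.45 over the fits that left out a library and a value of -1.87 after quantile normalization. Tgfbr3 (5:107249402-107437623, minus strand), which presents TGF-β2 in particular, was at 11615 and 11401 in the controls and at 5044 and 3413 under tamoxifen. Its groups were apart, with a log2 fold change of -1.47 ± 0.21 (adjusted p = 0.000659).

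The 10 genes differed in how far the tamoxifen libraries stood from each other. Acvrl1 was lower in the second than in the first by 1.16 on the log2 scale, and Eng by 1.01. The mean of the 12 endothelial markers was lower by 0.98 between the same libraries. Tgfbr2 was lower by 0.69, Tgfbr3 by 0.56 and Bmpr2 by 0.51, while for Tgfbr1, Acvr1, Acvr2b and Acvr2a these libraries were within 0.16 of each other. Bmpr1a was higher in the second tamoxifen library, by 0.27, which was also its difference between the control libraries.

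Each receptor was then set against the mean log2 level of the 12 endothelial markers in the same library, a ratio that does not depend on library scaling. These ratios were not tested and were read by whether the groups overlapped. Eng stood at 0.92 and 1.21 on this log2 scale in the controls and at 1.15 and 1.12 under tamoxifen. Acvrl1 stood at -0.48 and -0.38 in the controls and at -0.46 and -0.64 under tamoxifen. For both genes the groups overlapped, with mean changes of 0.07 and -0.12, while the markers themselves were lower by 3.03. The other 8 receptors stood higher relative to the markers in both tamoxifen libraries. A gene that fell clearly less than the markers stands higher on this ratio, and the median log2 fold change over all genes was 0.05. The share of all genes that stand higher in this way was not computed. The mean change in log2 ratio was 0.83 for Bmpr2, 0.93 for Tgfbr2, 1.55 for Tgfbr3, 1.66 for Acvr1, 2.03 for Acvr2a, 2.72 for Tgfbr1, 3.44 for Acvr2b and 6.13 for Bmpr1a.

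**Figure D2:**
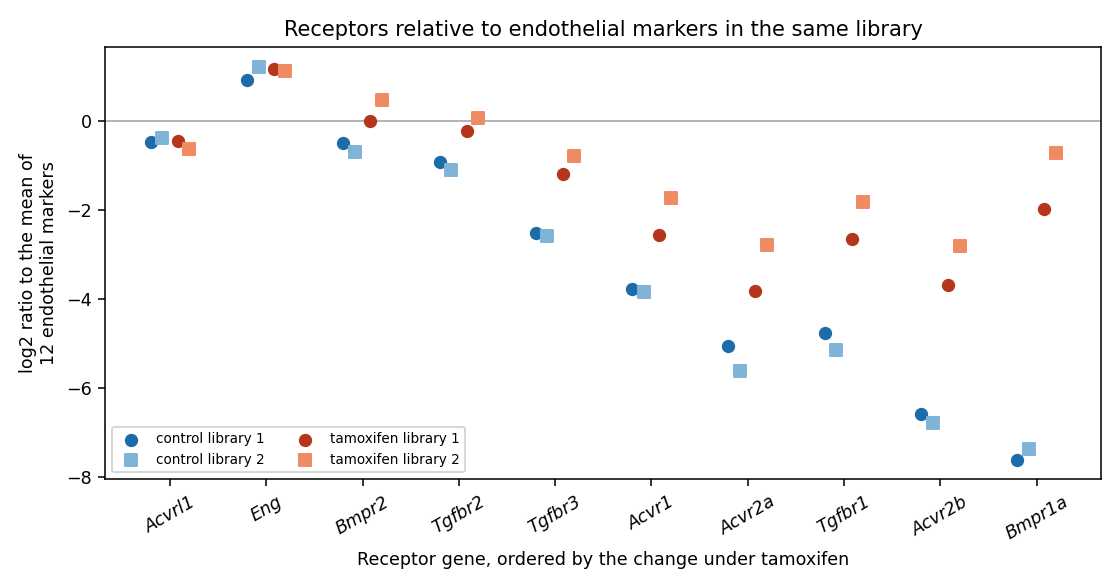
Log2 ratio of each receptor to the mean of 12 endothelial markers in each library, with receptors ordered by the difference between groups. Acvrl1 and Eng overlap between groups, and the other 8 lie higher in both tamoxifen libraries, as can any gene that fell less than the markers.

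Ratios between receptors of 1 library follow from the fold changes above and are no separate result. The log2 ratio of Acvrl1 to Bmpr1a was 7.12 and 6.98 in the controls and 1.52 and 0.09 under tamoxifen. This is a mean difference of -6.25, or 75.9-fold. Acvrl1 was also lower relative to Acvr1 (difference in log2 ratio -1.78) and to Tgfbr1 (-2.84). Eng to Acvrl1 changed little: 1.40 and 1.59 in the controls and 1.61 and 1.75 under tamoxifen, a difference of 0.19. Eng was lower relative to Tgfbr3 (-1.48) and to Tgfbr2 (-0.86), Bmpr2 relative to Acvr2a (-1.21) and to Acvr2b (-2.61), and Tgfbr2 relative to Tgfbr1 (-1.78). The groups did not overlap in any of these 9 ratios, though Eng to Acvrl1 was apart only by 1.59 against 1.61. Of single genes, 39.2% were lower and 43.1% higher without overlap, and other pairs of genes were not examined.

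The make-up of the receptor classes followed from these changes. Over 7 type I receptors (with Acvr1b, Acvr1c and Bmpr1b, which the family also holds), the summed level per kilobase went from 7589 and 8124 to 2501 and 2075. Acvrl1 made up 83.5% and 85.2% of it in the controls, and 44.8% and 24.2% under tamoxifen. Bmpr1a went from 0.582% and 0.655% to 15.2% and 22.1%. Acvr1b, an activin receptor, went from 1.24% and 1.52% to 13.3% and 18.9%. Of the type II receptors, Tgfbr2 held 57.9% and 58.7% in the controls and 56.8% and 52.0% under tamoxifen, and Bmpr2 38.3% and 38.1% against 32.4% and 33.6%. Type II levels therefore kept their order although their sum went from 6861 and 6114 to 1981 and 1343. Endoglin made up 90.5% and 92.4% of the 2 coreceptors in the controls and 81.8% and 76.7% under tamoxifen.

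**Figure D3:**
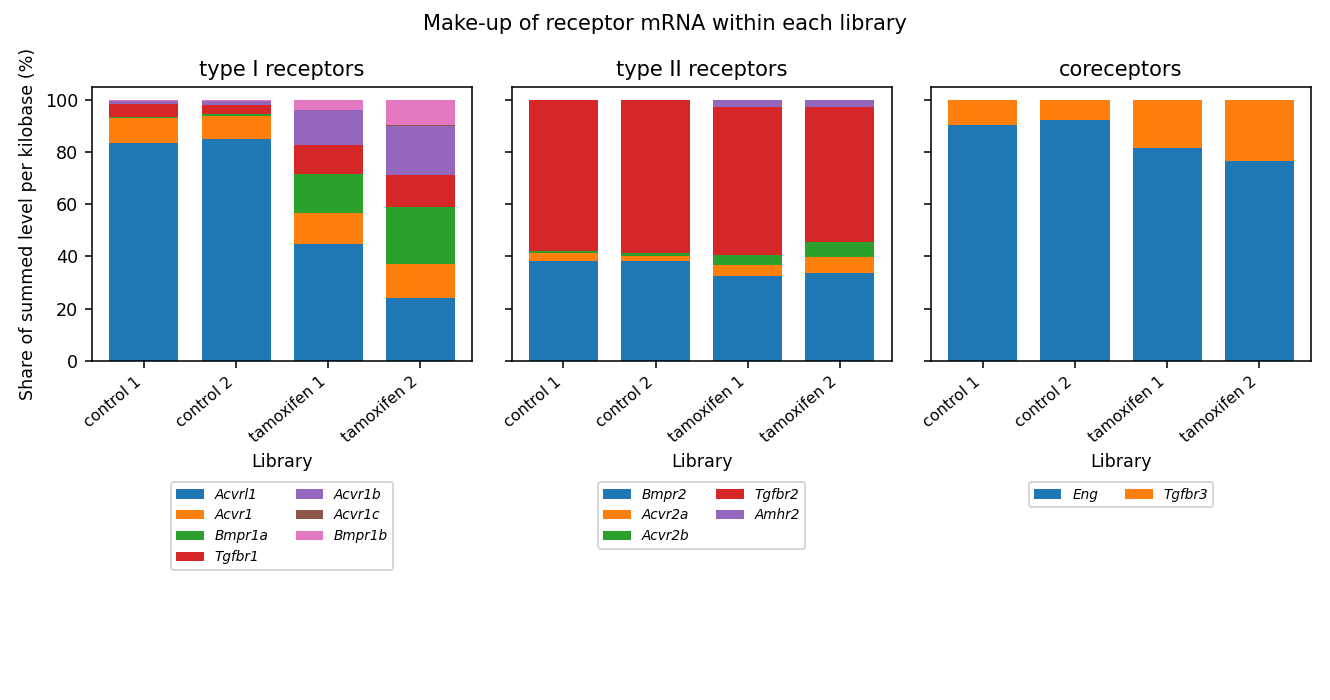
Share of each gene in the summed level per kilobase of the type I receptors, the type II receptors and the coreceptors, in percent, with 1 stacked bar for each library. Acvrl1 falls from over 83% of type I mRNA in the controls to 44.8% and 24.2% under tamoxifen, whereas Bmpr2 and Tgfbr2 keep most of the type II mRNA in all 4 libraries.

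Of 10 other receptors and coreceptors of the superfamily, 8 rose and 2 fell, against 33.4% and 25.5% of all genes. Their median log2 fold change was 2.75. The type I receptors among them all rose: Acvr1b by 1.74 ± 0.21, Bmpr1b by 3.25 ± 0.38 and Acvr1c, at 9.59 to 51.0 normalized counts, by 1.81 ± 0.57. Acvr1c lost its call without the first control library (adjusted p = 0.0787), without the first tamoxifen library (adjusted p = 0.101), without the second (adjusted p = 0.124) and after quantile normalization (0.87, adjusted p = 0.193), which also gave Bmpr1b at 2.43. Amhr2, the receptor of anti-Müllerian hormone, had 6 reads in the controls together and 192 under tamoxifen, a ratio of 21.1 after scaling (95% counting interval 9.54 to 58.3). Tdgf1 (Cripto), the nodal coreceptor of early embryos, went from 15.1 and 28.8 to 11019 and 9229.9, a log2 fold change of 8.85 ± 0.32 (adjusted p = 3.69e-06).

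The BMP coreceptors of the repulsive guidance molecule family were divided. Rgma rose by 2.93 ± 0.32, a call lost without the second tamoxifen library (adjusted p = 0.0513). Rgmb fell by 0.53 ± 0.15 on the log2 scale, and this call was lost without either control library (adjusted p = 0.0916 and 0.0585), without the second tamoxifen library (adjusted p = 0.0893), with no variance trend (adjusted p = 0.0923) and on equal totals (adjusted p = 0.723). Hjv had no read in the controls and 43.4 and 33.8 normalized counts under tamoxifen, at least 9.81-fold higher when each control library is set to 3 reads. Cd109, a TGF-β coreceptor, rose by 2.57 ± 0.26, or 1.86 after quantile normalization. Bambi, a pseudoreceptor that lacks a kinase, fell by 1.47 ± 0.17, close to Tgfbr3.

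**Figure D4:**
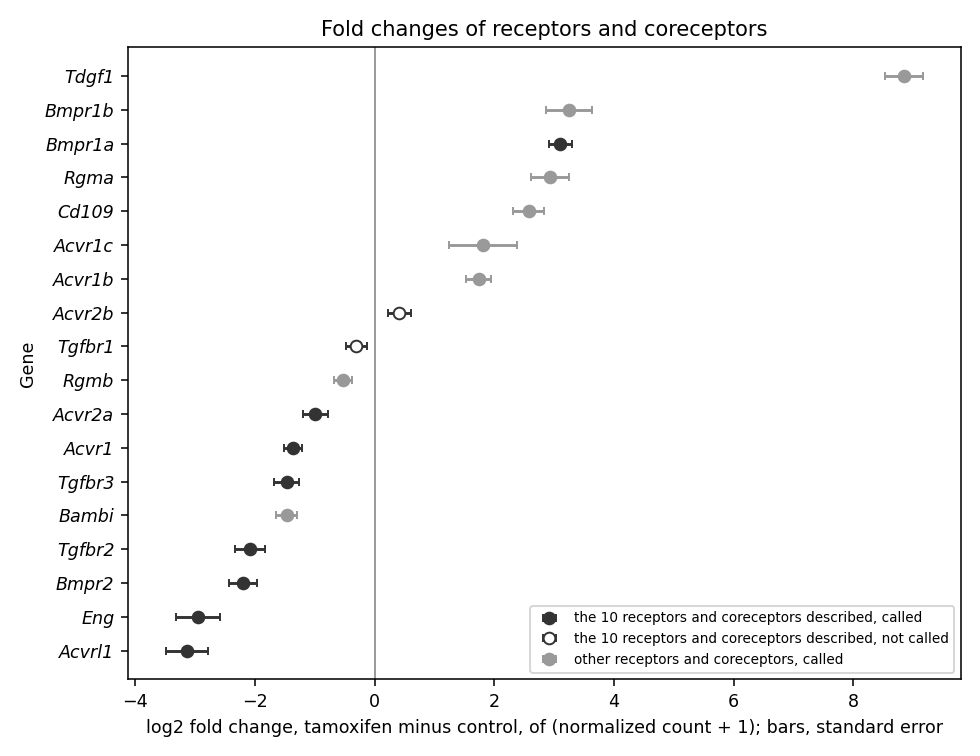
Log2 fold change, tamoxifen minus control, of the 10 receptors (dark) and of 8 further receptors and coreceptors of the superfamily (grey), with standard errors; open circles were not called, and the 2 genes with 3 or fewer reads in each control library are left out. Acvrl1 and Eng lie at the low end, Bmpr1a at 3.10 stands with the further receptors, and Tdgf1 is highest at 8.85.

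Around the receptors, 7 of 9 proximal regulators fell and 2 rose (median -1.11). Cav1, the coat protein of caveolae in which receptors are taken up, fell by 2.41, and Mmp14, a membrane protease that sheds endoglin, rose by 2.72. Of 8 Smads, 6 fell and 2 were not called (median -0.89). Smad6, which blocks BMP type I receptors, went from 2437 and 3224 to 905 and 338, a log2 fold change of -2.34 ± 0.41 that was -3.05 without the first tamoxifen library and -1.63 without the second. Smad5, which BMP receptors phosphorylate, fell by 0.84, a call lost on equal totals (adjusted p = 0.0565). Of 13 ligands listed, 11 were in the expression table and were tested, and Bmp10 and Gdf2 (the gene of BMP9) were absent from it. Of the 11 tested, 6 rose and 2 fell (median 1.55). Inhba, a subunit of activin A, rose by 4.68 (3.73 after quantile normalization), from 16 and 10 reads in the controls. Tgfb2 fell, from 8155 and 8699 to 2198 and 2004. Of 14 target genes, 9 fell and 5 rose (median -1.53), with Id1 at -2.89 and Tgfbi at 4.08. Smad6, Smad7 and Bambi, all called lower, are counted both here and among the Smads or the other receptors. Over all genes tested, 25.5% were called lower and 33.4% higher, and none of these lists was tested as a set.

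The genes whose profile over the 4 libraries was nearest were sought among the 7788 genes that averaged 1000 or more normalized counts, by distance between log2 values centred on each gene's mean. Nearest to Acvrl1 were Adcy4 (distance 0.0558), St6galnac2 and Cracr2b. Nearest to Eng were Erg (0.101), Id1 and Ly6e. Ets1 (0.0499), Lats2 and Frmd4b were nearest to Bmpr2, and Ppp1cc (0.0130), Atp6ap2 and Fem1b to Acvr2b. With 2 libraries a group, this distance takes in only the group difference and the gaps within each group.

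Most markers of other cells were called higher under tamoxifen, whereas 7 of the 10 receptors were called lower. All 6 fibroblast markers rose, by 3.53 (Lum) to 5.95 (Col1a1) on the log2 scale. Pdgfra is counted both here and in the oligodendrocyte lineage list. All 6 astrocyte markers (median log2 fold change 3.24), all 6 oligodendrocyte lineage markers (3.31), all 6 neutrophil markers (8.54) and all 6 erythrocyte markers (2.29) rose. So did 4 of 6 neuron markers (3.21), 4 of 6 microglia and macrophage markers (1.11), all 6 cell cycle genes (6.58) and all 6 pluripotency genes (8.94). In the neuron list, the synaptic genes Snap25 (-0.08) and Syt1 (0.22) overlapped between groups. In the microglia list, Csf1r was called only narrowly (limma, adjusted p = 0.0499), and Cx3cr1 and P2ry12 overlapped between groups. Of 8 pericyte and smooth muscle markers, 2 were called higher (median 0.68), against 33.4% of all genes. Among them Rgs5 (0.009) and Myh11 (0.03) changed little, and Tagln was lower in both tamoxifen libraries (-1.43). The remaining genes of these lists were not called. The summed astrocyte level went from 27117 and 31486 to 134790.4 and 285979.9, that of neuron markers from 1614 and 2019 to 13475 and 22340.5, and that of pericyte and smooth muscle markers from 24248 and 42067 to 28419 and 58886. These 3 sums were higher in the second tamoxifen library than in the first. The summed fibroblast level went from 2257 and 3213 to 69745 and 59759, and that of neutrophil markers from 219 and 183 to 91344 and 68254, both lower in the second tamoxifen library than in the first. Ly6g was the only one of these markers at 0 in a library, and it was so in both controls. The part of other cells in the rise of Bmpr1a and in the fall of the 7 receptors was not tested.

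Promoter windows from RefSeq (250 bases before to 50 after the start) matched GRCm39 exactly for 8 of the 10 genes; Acvrl1 and Tgfbr3 had none. They were searched on both strands for GGCGCC, a GC-rich site of BMP Smads, CCGGAAG, an ETS factor site, and the Smad palindrome GTCTAGAC. These words stand in 11.87%, 8.858% and 0.2131% of all 32851 windows. The stretches with a match are shown, 5′ to 3′ on the strand of the gene with the word in capitals, because they set a rising, a falling and an uncalled receptor side by side with the same word.

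Bmpr1a, 14:34224684-34224713, minus strand: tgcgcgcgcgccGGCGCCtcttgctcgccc
Bmpr2, 1:59803321-59803350, plus strand: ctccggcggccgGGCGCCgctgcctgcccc
Tgfbr1, 4:47352977-47353006, plus strand: ggctggagtaaaGGCGCCcagcggtgaggg
Acvr2a, 2:48704125-48704154, plus strand: tcaggacggaaCCGGAAGtgtagggggcgg

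The word GGCGCC thus stood before the start of Bmpr1a, which rose, of Bmpr2, which fell, and of Tgfbr1, which was not called. The Bmpr1a, Bmpr2 and Acvr2a stretches lie in exons annotated by GENCODE, and the Tgfbr1 stretch lies upstream of its gene. GTCTAGAC was in none of these windows. The Bmpr1a window held 48 CpG dinucleotides and the Eng window 6, where the median over all windows was 7. The Acvr2a and Acvr1 windows held 54 and 51, and those of Bmpr2, Tgfbr2 and Acvr2b held 23, 15 and 27. The Tgfbr1 windows held 34 and 3. A relation of CpG content to the direction of change was not tested.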

How the data were processed

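Brain cells, described by the study as CD31+CD45- ECs, were profiled by mRNA-seq in 2 control and 2 tamoxifen libraries, each from a pool of 3 mice. The study used male and female mice. Per the submitters' notes, the authors used GRCm39, with STAR 2.7.10a for alignment and DESeq2 1.36.0; libraries were made with a stranded kit and genes with low counts were left out, but the limit used, the annotation release and the strand setting of the counting are not given in the sources used here. The deposited table holds a signal per gene, namely normalized counts, with 1 column per library. Column letters C and A were read as control and as arteriovenous malformation (tamoxifen). All values (100%) were whole multiples of 1 read within 0.01, so reads could be recovered.

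Here, log2(normalized count + 1) was tested with limma 3.58.1 (R 4.3.3; lmFit, eBayes with trend) over genes with a mean of at least 10, two-sided, with Benjamini-Hochberg adjustment over all genes tested. Fold changes are on this scale, which understates the change of low genes. The test was checked on simulated data. Alternatives were tests of the recovered reads by DESeq2 1.42.0 and by edgeR 4.0.16, pseudocounts of 0.5 and 5, no filter or a mean of 100, equal totals, quantile normalization, no variance trend, a replicate block, and leaving out each library. Exon lengths (union of exons) and positions came from GENCODE on GRCm39. Intervals of ratios and the floor of 3 reads cover counting error only.

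The 10 genes and the lists (other receptors, proximal regulators, Smads, ligands, targets and cell markers) were chosen with earlier results of these data known, and support no independent claim. Named genes were all members, all other receptors, Mgp, Pecam1, Cdh5 and the nearest profiles. Of each other list, the called gene with the largest change each way and the gene with the highest mean were eligible. Further genes were named as exon neighbours, as absent or without reads, as shared between lists, or for the range and exceptions of a list. Replicate numbers share only a number: deviations of same-numbered libraries correlated at 0.0251.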

Additional observations from a re-analysis of the deposited data

How the results depend on the processing

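Between 6 and 7 receptors were called lower in all 16 alternatives, and Acvr2a was the 1 lost where there were 6. Acvrl1 and Bmpr1a were called in each. On equal totals, 2833 of all genes were lower (5228 as reported), 2 receptors were higher (Bmpr1a and Acvr2b), and Tgfbr1 (0.16) and Mgp (0.079) turned sign. After quantile normalization, 7405 genes were lower and 5707 higher, Mgp was called lower (-0.65), and 7 receptors were lower and 1 higher. Leaving out a library gave 2344 to 4783 lower and 3233 to 7150 higher genes; without the first tamoxifen library these were 2849 and 3690, and without the second 2344 and 3233, where a lone library was assumed to vary like the controls. With the replicate block, 5492 genes were lower and 7143 higher, 7 receptors were lower and 1 higher, and no call on a receptor changed; the numbers pair no samples. Shares of Acvrl1 and Bmpr1a kept their direction in every setting run.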
